A study of Homo sapiens with 10 samples.

Results

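SW620 is an established human colon cancer line, and the genes described here are those whose expression moved away from it in every array of its metastatic derivatives. The derivatives were grown out from metastases that SW620 cells had formed in nude mice of the balb/c strain, and the recovered cells were expanded in culture before RNA was taken. RNA of 4 parental, 3 liver derivative and 3 lung derivative cultures was measured on an Affymetrix HG1.0ST array. All 10 samples were cultured in one medium with fetal bovine serum. No gene was altered on purpose in any of them, and the host mouse is named only as the animal that carried the selection. The labels call the replicates biological but do not say whether those of a derivative come from separate metastases or from separate cultures of 1 derivative. The p-values therefore measure the spread between these arrays only.

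The 6 derivative arrays were taken as 1 group, and the rows of the table that carry a single gene symbol were averaged for each gene. Among 4713 genes, 205 (4.35%) had all 6 derivative arrays above the highest of the 4 parental arrays and 239 (5.07%) had all 6 below the lowest. These 444 genes (9.42%) are called separated. With each array centred on its median the genes above made up 56.2% of 468 separated genes, against 46.2% of the 444. Another 105 (2.23%) had every derivative array outside the parental range but on both sides of it, which brings the genes with all 6 arrays outside to 549. The table covers chromosomes 1, 10, 11 and 12, which hold 4660 of the 4713 genes, and genes elsewhere are not analysed here.

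Repeated passage of a tumour line through an animal selects cells that survive in the blood, lodge in an organ and grow there. The survivors are then a sample of the cells of the line and may differ from it in gene activity, in DNA copy number or in both. In colon cancer the liver and the lung are the usual sites of spread. Genes studied in this setting include those of the switch between epithelial and mesenchymal states, those of the Wnt-driven stem cell programme of the intestinal crypt, and those of drug and steroid metabolism. Expression arrays read RNA levels alone, and in a bulk culture fewer cells of a kind and less RNA per cell cannot be told apart.

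RAB25 had the largest rise and AKR1C3 the largest fall among the separated and called genes with at least 3 rows. Their promoters are shown with those of KRT5, the leading keratin, and AKR1C4, a neighbour of AKR1C3 that also fell. RAB25 encodes a GTPase of apical recycling endosomes, and KRT5 encodes the type II keratin of basal epithelial cells. AKR1C3 and AKR1C4 encode reductases of steroids and prostaglandins and lie in 1 cluster on chromosome 10. The 250 bases before each start were taken from RefSeq on GRCh38.p14 and are written 5′ to 3′ on the strand of the gene. RAB25 is at chr1:156060910-156061159 on the plus strand, and KRT5 at chr12:52520395-52520644 on the minus strand. AKR1C3 is at chr10:5048531-5048780 and AKR1C4 at chr10:5196587-5196836, both on the plus strand. Capitals mark matches on either strand to the letters CACCTG, the core bound by the repressors ZEB1 and SNAI1, to TATAAA, to CTTTGAT of TCF and LEF factors, or to TGACNNNGC, the core of the antioxidant response element.
RAB25: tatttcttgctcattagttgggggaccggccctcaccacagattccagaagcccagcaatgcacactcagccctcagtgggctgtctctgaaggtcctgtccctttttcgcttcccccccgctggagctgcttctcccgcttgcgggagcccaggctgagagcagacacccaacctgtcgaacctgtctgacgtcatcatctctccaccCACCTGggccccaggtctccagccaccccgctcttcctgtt
KRT5: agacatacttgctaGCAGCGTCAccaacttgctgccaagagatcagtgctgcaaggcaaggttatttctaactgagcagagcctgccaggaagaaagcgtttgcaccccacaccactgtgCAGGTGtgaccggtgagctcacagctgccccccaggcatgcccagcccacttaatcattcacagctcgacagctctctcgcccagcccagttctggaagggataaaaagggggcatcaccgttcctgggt
AKR1C3: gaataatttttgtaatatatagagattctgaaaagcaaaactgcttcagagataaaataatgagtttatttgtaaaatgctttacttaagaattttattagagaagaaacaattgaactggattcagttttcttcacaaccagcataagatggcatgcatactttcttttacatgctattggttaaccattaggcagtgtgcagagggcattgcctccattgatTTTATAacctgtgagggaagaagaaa
AKR1C4: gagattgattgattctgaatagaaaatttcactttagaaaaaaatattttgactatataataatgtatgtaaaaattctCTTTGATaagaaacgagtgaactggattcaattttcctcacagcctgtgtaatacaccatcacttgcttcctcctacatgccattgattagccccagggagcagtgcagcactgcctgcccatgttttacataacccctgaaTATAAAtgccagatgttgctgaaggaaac

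The letters CACCTG were found in the promoters of RAB25 and KRT5, in KRT5 on the opposite strand. TATAAA was found in those of both AKR1C genes, in AKR1C4 on the strand of the gene. In AKR1C3 it lay on the opposite strand only (marked TTTATA), so it is not read as a TATA box of that gene. Over the promoters of 3730 measured genes, 16.8% held CACCTG on 1 strand or the other, against 17.5% of all 27305 promoters of this length. The share was 22.8% (36 of 158) among genes with all 6 arrays above and 10.5% (20 of 190) among genes with all 6 below. On either strand, TATAAA was found in 9.84% of measured promoters, in 8.23% of those above and in 7.37% of those below. TGANTCA, the AP-1 site, was found in 5.90%, 5.06% and 3.16%, and CCGGAAG, the ETS site, in 11.3%, 7.59% and 7.37%. CTTTGAT was held by 1.74%, 2.53% and 2.63%, and TGACNNNGC by 10.5%, 6.96% and 11.1%. These shares are descriptions of letters in a window and were not tested.

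The 10 arrays did not fall into their 3 groups alone. Across genes, which are not replicates, parental arrays 1 to 3 correlated with each other at 0.996 to 0.998 and with parental array 4 at 0.989 to 0.991. Parental array 4 correlated with the lung arrays at 0.984 to 0.987, against 0.979 to 0.985 for parental arrays 1 to 3. With the liver arrays the order turned, at 0.982 to 0.985 for parental array 4 and 0.989 to 0.990 for arrays 1 to 3. The labels name no batch, and parental array 4 still correlated more with the other parental arrays than with any lung array. Calling parental array 4 and the lung arrays an array set is therefore a working division, made from the values only. For the genes below, the change is also given within each set, as the liver mean minus parental arrays 1 to 3 and as the lung mean minus parental array 4. The part of the sets in any result was not tested further.

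Keratins of simple epithelium were bright in both groups, while the intestinal markers named here were dim. KRT8 and KRT18, the keratins of simple epithelium, had parental means of 12.7 and 11.6 on the log2 scale and derivative differences of 0.05 each. The differentiation markers MUC2 (parental mean 7.29), of goblet cells, and APOA4 (6.99), of enterocytes, differed by -0.02 and 0.03. Both lay below the median of 8.33 over all genes, so these values do not show that either group expressed them. Of 24 listed differentiation genes 10 were measured, with a median difference of 0.07. The 1 separated member was LYZ, which differed by 1.31 and is described below.

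A linear model with a moderated variance (limma) compared the 6 derivative arrays with the 4 parental arrays, with Benjamini-Hochberg adjustment over all 4713 genes. It called 361 genes (7.66%) at an adjusted p under 0.05, 170 higher (3.61%) and 191 lower (4.05%). Of the 444 separated genes 311 were called, 157 higher and 154 lower, and only these are said below to have risen or fallen. The separation and the model use the same arrays, so neither is independent support for the other. Another 50 called genes overlapped the parental range in at least 1 array. Leaving out parental array 2 brought the 361 calls to 217 and leaving out parental array 1 to 234. The 444 became 795 without parental array 4. Of the 311 genes 203 were called in each of the 10 fits that left out 1 array.

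Most separated genes had moved little. The difference between derivative and parental means was at least 1 log2 unit, a doubling or a halving, in 46 of the 444 (26 above and 20 below). It lay between 0.5 and 1 in 112 and under 0.5 in 286. The median difference was 0.45 for genes above and -0.32 for genes below, against 0.01 over all 4713 genes. The gap between the nearest derivative and parental arrays was under 0.1 in 219 genes and at least 0.5 in 35. Genes above came from lower parental levels, with a median of 7.84, and genes below from higher levels, with a median of 9.48, around the median of 8.33 over all genes. RERE (gap 0.0016), MYCL (0.0027), DTX3 (0.0003) and TMOD4 (0.0013) lay just inside the limit. FCN3, PBLD and TRAPPC3, on the higher side, and TLCD4, NECTIN1 and P3H1, on the lower, lay just outside it, with 1 or more derivative arrays within the parental range.

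**Figure D1:**
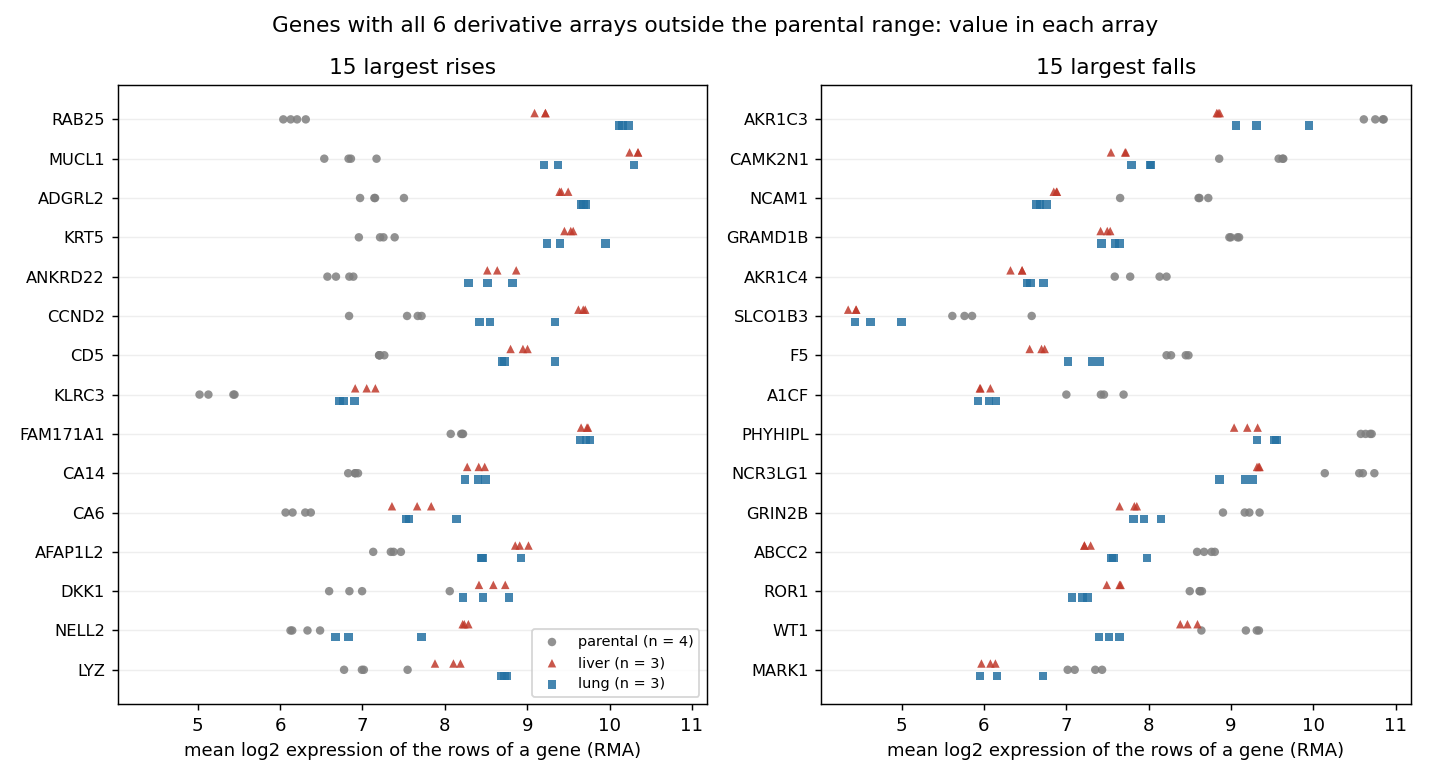
Mean log2 expression of each gene over its rows (horizontal axis) in each of the 10 arrays, for the 15 largest rises (left) and the 15 largest falls (right) among separated and called genes with at least 3 rows. Grey circles are the 4 parental arrays, red triangles the 3 liver and blue squares the 3 lung derivative arrays; RAB25 stands farthest from the parental arrays, and liver and lung arrays lie apart in NELL2 and WT1.

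RAB25 showed the largest difference. The parental arrays held it at 6.04, 6.31, 6.21 and 6.13, the liver arrays at 9.22, 9.22 and 9.09, and the lung arrays at 10.12, 10.16 and 10.23. No derivative array came near the parental values, and the lung arrays lay above the liver arrays. The rise was 3.50 (SE 0.24), or 11.3-fold, with limma's adjusted p = 3.18e-06, and all 5 of its rows were separated. Its parental mean of 6.17 lay below the median of 8.33 over all genes, and folds from dim levels are the least certain. Within the array sets the rise was 2.99 in liver and 4.04 in lung derivatives.

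MUCL1, a small mucin-like secreted protein, rose by 3.12 (SE 0.24, limma adjusted p = 1.14e-05). Its values were 6.54 to 7.17 in parental, 10.24 to 10.35 in liver and 9.20 to 10.30 in lung arrays, with 9 of 10 rows separated. ADGRL2, an adhesion G protein-coupled receptor that binds partners across the cell gap, rose by 2.37 (SE 0.10). Here 24 of 26 rows were separated, from 6.97 to 7.50 in parental and 9.39 to 9.71 in derivative arrays. Few of its rows, then, failed to separate the groups.

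Other leading rises spanned unrelated roles. ANKRD22, an ankyrin repeat protein, lay at 6.57 to 6.89 in parental and 8.29 to 8.87 in derivative arrays, a rise of 1.86 (SE 0.11). FAM171A1, a transmembrane protein, lay at 8.22, 8.21, 8.20 and 8.07 in parental arrays and at 9.64 to 9.76 in derivatives, and its rise of 1.53 (SE 0.06) had the lowest adjusted p among the named genes, 2.06e-08 by limma. CCND2, a D-type cyclin that drives entry into the cell cycle, rose by 1.78 (SE 0.28), with liver arrays at 9.62 to 9.70 and lung arrays at 8.42, 8.55 and 9.34. Parental array 4 was lowest for CCND2, at 6.84 against 7.54 to 7.72. The carbonic anhydrases CA14 and CA6, which interconvert carbon dioxide and bicarbonate, rose by 1.49 (SE 0.07) and 1.46 (SE 0.13). AFAP1L2, an adaptor of SRC kinase signalling, rose by 1.44 (SE 0.12) in 15 of 21 rows. NELL2, a secreted glycoprotein of neurons, rose by 1.39 (SE 0.32), but its adjusted p reached 0.066 when parental array 2 was left out.

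AKR1C3 fell by 1.62 on the log2 scale (SE 0.19, limma adjusted p = 0.000234), to a level 3.08-fold lower. It lay at 10.85, 10.75, 10.61 and 10.84 in parental arrays, at 8.84, 8.86 and 8.83 in liver arrays and at 9.31, 9.06 and 9.95 in lung arrays. All 8 of its rows were separated, and the lung arrays lay between the liver and the parental arrays. AKR1C4 fell by 1.42 (SE 0.12) in 9 of 10 rows. AKR1C family members share long stretches of sequence and probes can cross-hybridise, so their values are uncertain as separate measurements. The neighbouring AKR1C1 and AKR1C2 differed by -0.10 (adjusted p = 0.551) and 0.07 (adjusted p = 0.612) in the limma fit.

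CAMK2N1, NCAM1 and GRAMD1B came next to AKR1C3 among the falls. CAMK2N1, which inhibits the calmodulin-dependent kinase CAMK2, lay at 9.58, 9.63, 9.63 and 8.86 in parental arrays and at 7.54 to 8.03 in derivatives. Its fall was 1.62, and within the sets it fell by 1.95 in liver and by 0.91 in lung derivatives, because parental array 4 was the low parental array. The adhesion molecule NCAM1 had the same pattern. It lay at 8.61, 8.72, 8.62 and 7.65 in parental arrays and at 6.64 to 6.89 in derivatives, and it fell by 1.62 (SE 0.18). GRAMD1B, a carrier of cholesterol between membranes, had parental arrays at 8.98 to 9.10 and derivatives at 7.42 to 7.65. Its fall of 1.52 (SE 0.06) was -1.54 in both array sets.

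F5, coagulation factor V, fell by 1.40 (SE 0.16) in 18 of 25 rows, from 8.22 to 8.48 in parental arrays to 6.56 to 6.74 in liver and 7.02 to 7.41 in lung arrays. A1CF, the RNA-binding partner of the APOB editing enzyme in liver and intestine, fell by 1.37 (SE 0.11) and overlapped between liver (5.95 to 6.08) and lung (5.93 to 6.15) arrays. GRIN2B, a subunit of the NMDA glutamate receptor, fell by 1.29 (SE 0.10) in 13 of 15 rows. NCR3LG1, the ligand by which natural killer cells recognise tumour cells through NKp30, fell by 1.29 (SE 0.12) in all 4 rows. ROR1, a receptor tyrosine kinase-like Wnt receptor, fell by 1.21 (SE 0.12), with lung arrays at 7.07 to 7.26 below liver arrays at 7.49 to 7.66. In ROR1 9 of 12 rows were separated, but in its brightest row the difference turned to 0.41 (limma adjusted p = 0.744). The transcription factor WT1 fell by 1.12 (SE 0.25), from 8.64 to 9.34 in parental arrays to 8.38 to 8.59 in liver and 7.40 to 7.65 in lung arrays. The nearest parental and liver arrays of WT1 differed by less than the spread within either group, and its adjusted p was 0.0692 without parental array 2. PHYHIPL (-1.33) and MARK1, a kinase of microtubule-associated proteins (-1.06), completed the 15.

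Genes with 1 or 2 rows rest on fewer probes. Of these, CH25H, a hydroxylase that makes an oxysterol, rose by 0.91 and B3GALT2, a galactosyltransferase, by 0.67 (adjusted p = 0.0511 without parental array 2). The snoRNA SNORA19 fell by 1.49, the small Cajal body RNA SCARNA9 by 0.82 and FAM24B by 0.67, the last with an adjusted p of 0.172 without parental array 1.

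The remaining genes were read through 27 lists, of which 23 held at least 1 separated gene. Over all genes 9.42% were separated, 4.35% above and 5.07% below, and 7.66% were called. The counts below stand beside these shares as descriptions, and no list was tested against them. In the list of epithelial junction and polarity genes, 3 of 9 measured members lay above and 2 below. RAB25 and OVOL1, a repressor of mesenchymal genes (0.37), rose, while ST14, a membrane protease of epithelia, had a difference of 0.20 and an adjusted p of 0.0521. The tight junction protein CGN (-0.34) and the epithelial transcription factor ELF3 (-0.38) fell. In CGN 5 of 21 rows were separated, and in its brightest row the difference turned to 0.27 (limma adjusted p = 0.524). Limma's adjusted p reached 0.0762 for OVOL1 without parental array 4 and 0.0756 for ELF3 without parental array 2, and OVOL1 was called in 4 of the 10 fits that left out an array. The list's median difference was 0.04, against 0.01 over all genes. Of 6 mesenchymal genes, ZEB1, a repressor of epithelial genes, fell by 0.62 (SE 0.09), from 7.38 to 7.75 in parental arrays to 6.78 to 7.13 in derivatives. In ZEB1 2 of 17 rows were separated, and in its brightest row the difference was 0.01. VIM, the intermediate filament of mesenchymal cells, differed by 0.09 (adjusted p = 0.439). The epithelial and mesenchymal lists thus moved in part, and RAB25 was the only member of either with a difference above 1.

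All 27 keratin genes of the list were measured and 5 lay above, none below. KRT5 lay at 7.21, 7.25, 7.39 and 6.96 in parental arrays, at 9.56, 9.53 and 9.45 in liver arrays and at 9.24, 9.40 and 9.95 in lung arrays. It rose by 2.32 (SE 0.13, limma adjusted p = 4.51e-07) in 8 of 10 rows and by nearly the same amount in both derivatives. KRT6A, a keratin of stressed and wounded epithelium and the neighbour of KRT5, rose by 0.75 (SE 0.16). Its brightest row changed by -0.09, 3 of 5 rows were separated, and near-identical KRT6 genes can share probes. KRT74 (0.36) and KRT2 (0.28) also rose, and KRT75 had 0.22 with an adjusted p of 0.0611. Leaving out a parental array brought limma's adjusted p to 0.0544 for KRT6A and 0.0548 for KRT74 (array 2) and to 0.134 for KRT2 (array 1; called in 4 of 10 such fits), while KRT5 was called in every such fit. The median over the list was 0.10.

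The crypt stem cell and Wnt target list held 5 members below and 1 above among 13 measured, and all 6 were called. LGR5, the R-spondin receptor that marks crypt stem cells, lay at 9.64, 9.74, 9.62 and 9.45 in parental arrays, at 8.57, 8.86 and 8.97 in liver arrays and at 8.38, 8.50 and 8.14 in lung arrays. It fell by 1.04 (SE 0.14, limma adjusted p = 0.000674) in 14 of 18 rows, and the lung arrays were the lowest. CD44, the hyaluronan receptor, fell by 0.92 (SE 0.15), from 7.79 to 7.98 in parental arrays to 7.11 to 7.39 in liver and 6.55 to 6.99 in lung arrays. EPHB2, a receptor that sorts crypt cells by position, fell by 0.52 (SE 0.07) and LGR6, a relative of LGR5, by 0.56, while BCL9, a coactivator of beta-catenin, fell by 0.37. LGR5 is next to TSPAN8, a tetraspanin of the cell surface, which fell by 0.77 (SE 0.19). TSPAN8 had an adjusted p of 0.0954 without parental array 1.

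DKK1, a secreted antagonist of Wnt signalling, was the member that rose, by 1.41 (SE 0.23, limma adjusted p = 0.00255), with 2 of 7 rows separated. It lay at 6.60, 6.995, 6.84 and 8.06 in parental arrays, at 8.41, 8.59 and 8.73 in liver arrays and at 8.22, 8.46 and 8.78 in lung arrays. Parental array 4, at 8.06, came close to the lowest lung array. Within the array sets the difference was 1.77 in liver and 0.43 in lung derivatives.

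Of 20 detoxification and export genes 4 lay below, none above, and all 4 were called. Besides AKR1C3 and AKR1C4 these were ABCC2, which pumps organic anions out of cells, and SLCO1B3, which takes them up. ABCC2 fell by 1.23 (SE 0.14) in 17 of 32 rows, from 8.59 to 8.80 in parental arrays to 7.22 to 7.30 in liver and 7.55 to 7.98 in lung arrays. SLCO1B3 fell by 1.40 (SE 0.18) from the dim values of 5.62 to 6.58 to 4.35 to 5.00, with 3 of 10 rows separated. Other members of the list, among them GCLM (-0.19, adjusted p = 0.325) and TXNRD1 (-0.05, adjusted p = 0.701), targets of the NRF2 factor, were not called by limma. The median of the list was -0.10.

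Of 20 adhesion genes 2 lay above and 4 below. The tetraspanins TSPAN1 (0.73) and CD9 (0.32) rose, and the integrin subunit ITGA7 (-0.32) fell with NCAM1, CD44 and TSPAN8. Without parental array 2 the adjusted p of CD9 was 0.0739. Of 15 calmodulin kinase and neuronal genes, ADGRL2 and TH, the tyrosine hydroxylase of dopamine-making cells (0.68), rose. CAMK2N1, GRIN2B, the postsynaptic scaffold SHANK2 (-0.81) and the kainate receptor subunit GRIK4 (-0.48) fell.

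Growth factors and their receptors were separated in 7 of 18 measured genes, 5 above and 2 below, and all 7 were called. KITLG, the ligand of the KIT receptor, rose by 1.04, and EFNA4, a membrane-bound ligand of Eph receptors, by 0.95 (SE 0.09) in 6 of 6 rows, with 6.74 to 6.99 in parental and 7.60 to 8.004 in derivative arrays. IGF2 (0.84), its binding protein IGFBP6 (0.63) and FGF19 (0.56, SE 0.06), an ileal hormone of bile acid control, also rose. EFNA1 (-0.41), the ligand related to EFNA4, fell together with the receptor EPHB2. The median of the list was 0.14.

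NOTCH2, a receptor through which neighbouring cells signal, rose by 0.89 (SE 0.14) in 12 of 33 rows, from 7.37 to 7.60 in parental to 8.56 to 8.63 in liver and 7.99 to 8.12 in lung arrays, the 1 separated gene of 8 in the Notch list. In the TGF-beta list LTBP3, which holds latent TGF-beta in the matrix, rose by 0.49 and the co-receptor TGFBR3 fell by 0.60. JUN, a subunit of AP-1, fell by 0.56 in 4 of 5 rows, while the early response factor EGR2 rose by 0.96 in 1 of 4 rows. Of 18 hypoxia and glycolysis genes the peptide hormone ADM (0.77), the glucose transporter SLC2A3 (0.92) and HK1 (0.25) rose. ENO1 had all 6 arrays below by a margin of little size (-0.04, adjusted p = 0.643). Without parental array 2 the adjusted p of EGR2 was 0.0716 and that of HK1 0.112. HK1 was called in 2 of the 10 fits that each left out 1 array. SLC2A3 lay at 9.70 in parental array 4 and at 8.94 to 9.01 in the other parental arrays, so its change was 0.98 in liver and 0.50 in lung derivatives within the sets.

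CCND2, the replication factor MCM10 (0.28) and the cyclin kinase inhibitor CDKN1C (0.30) were the 3 that rose of 21 cell cycle genes, with a median of -0.14 over that list. The interferon-induced IFITM3 rose by 0.63 (3 of 24 measured interferon genes were separated). NFKB2 rose by 0.43 and TRAF5, an adaptor of tumour necrosis factor receptors, fell by 0.53 among 13 NF-kB genes. The desaturase FADS2 rose by 0.57 and the carboxylase ACACB fell by 0.34 among 12 lipid genes, the latter with 0.22 in its brightest row. Without parental array 2 the adjusted p by limma was 0.0583 for MCM10, 0.0539 for NFKB2 and 0.052 for ACACB, and without parental array 1 it was 0.113 for CDKN1C. Of 25 proteases, MMP12 (0.24, adjusted p = 0.0598), ADAM12 (0.16, adjusted p = 0.235) and ADAMTS14 (-0.21, adjusted p = 0.0807) were separated but not called by limma. SHMT2 (-0.13, adjusted p = 0.176) was the separated member of 10 stress genes. In the protease list and in the stress list 1 other gene each was called lower without being separated. The sign turned with the brightest row for ADAMTS14 (0.10) and SHMT2 (0.0126) and with the median of the rows for MMP12 (-0.25). None of 13 p53 targets was separated, and none of the 8 measured genes among 17 of the p38 and PTHLH list. The p38 kinases themselves, MAPK11, MAPK12, MAPK13 and MAPK14, were not among the measured genes, so nothing is known of them here. PTHLH, the parathyroid hormone-like peptide, lay at 7.64, 7.84, 8.02 and 8.93 in parental arrays, at 8.78 to 9.18 in liver and at 8.36 to 8.79 in lung arrays. Its difference of 0.67 had an adjusted p of 0.132, and it was 1.20 in liver and -0.41 in lung derivatives within the sets.

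**Figure D2:**
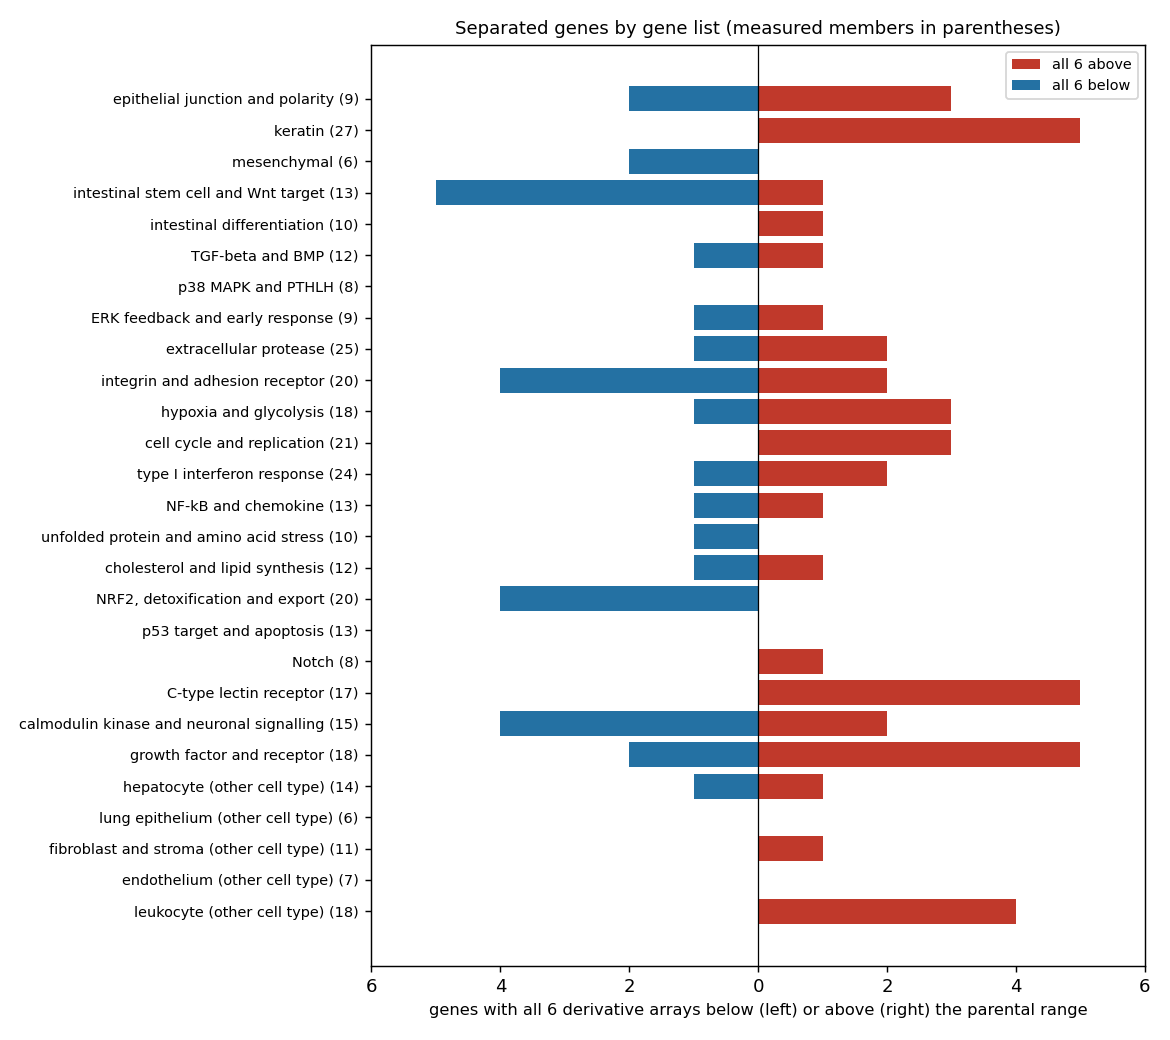
Number of genes with all 6 derivative arrays above (red, to the right) or below (blue, to the left) the parental range in each of 27 gene lists, with the measured members in parentheses. Keratin and C-type lectin genes were separated upward only (5 each) and detoxification and export genes downward only (4), while most lists held both directions or few genes.

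A group of genes known from immune cells rose in these epithelial cells. Of 17 C-type lectin receptors 5 lay above, and the 5, KLRK1, KLRC4, KLRC3, KLRC2 and KLRC1, are consecutive genes on chromosome 12 that encode activating and inhibitory receptors of natural killer cells. KLRC3 lay at 5.02 to 5.45 in parental and 6.72 to 7.16 in derivative arrays and rose by 1.66 (SE 0.11, limma adjusted p = 2.44e-06). KLRC2 (1.83, 2 rows), KLRC4 (0.70), KLRK1 (0.63) and KLRC1 (0.50) also rose, KLRC4 with an adjusted p of 0.0716 without parental array 2. KLRD1, which pairs with the KLRC proteins and lies nearby, differed by 0.21 (adjusted p = 0.326). All 5 were dim in parental arrays (4.82 to 6.32), and 1 or 2 rows of each were separated. The KLRC genes are near-identical copies that can share probes, so the rise cannot be assigned to 1 of them.

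On chromosome 11 the neighbours CD6 and CD5, scavenger receptors of T cells, both rose. CD5 lay at 7.20, 7.26, 7.21 and 7.20 in parental arrays, at 8.95, 9.004 and 8.80 in liver arrays and at 8.69, 8.72 and 9.34 in lung arrays. Its rise was 1.70 (SE 0.11) in 9 of 11 rows, and that of CD6 0.49 (SE 0.05). The co-receptor CD4 rose by 0.85 (SE 0.09) in 7 of 13 rows. LYZ, lysozyme of macrophages and Paneth cells, rose by 1.31 (SE 0.20) and was higher in lung (8.69 to 8.76) than in liver arrays (7.88 to 8.19).

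Markers of other cell types were counted the same way. Of 18 leukocyte genes 4 rose, namely CD5, CD6, CD4 and LYZ, and none fell. That is a larger share than the 3.61% of all genes that were called higher, but LYZ is also in the intestinal differentiation list. The pan-leukocyte marker PTPRC was dim at a parental mean of 5.04 and differed by 0.10 (adjusted p = 0.414), and CD3E differed by 0.07 (adjusted p = 0.544). The mean of the leukocyte list was 6.42 to 6.52 in parental and 6.67 to 6.86 in derivative arrays. It includes these 4 genes, which were picked because all 6 derivative arrays lay above, so this order adds no support. The part of such cells in the results was not tested. Of 14 hepatocyte genes APOA5 (0.19, adjusted p = 0.132) and CYP2E1 (-0.22, adjusted p = 0.0576) were separated and 0 were called, and their signs turned with the median of the rows for APOA5 (-0.053) and with the brightest row for CYP2E1 (0.0068), while the list's means were 6.46 to 6.61 in parental and 6.54 to 6.71 in derivative arrays. None of 6 lung epithelial and 7 endothelial genes was separated or called. Of 11 stromal genes C1R rose by 0.26, with 0 of 11 rows separated and an adjusted p of 0.112 without parental array 2. The proteoglycan LUM was called lower (-1.29) without being separated.

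**Figure D3:**
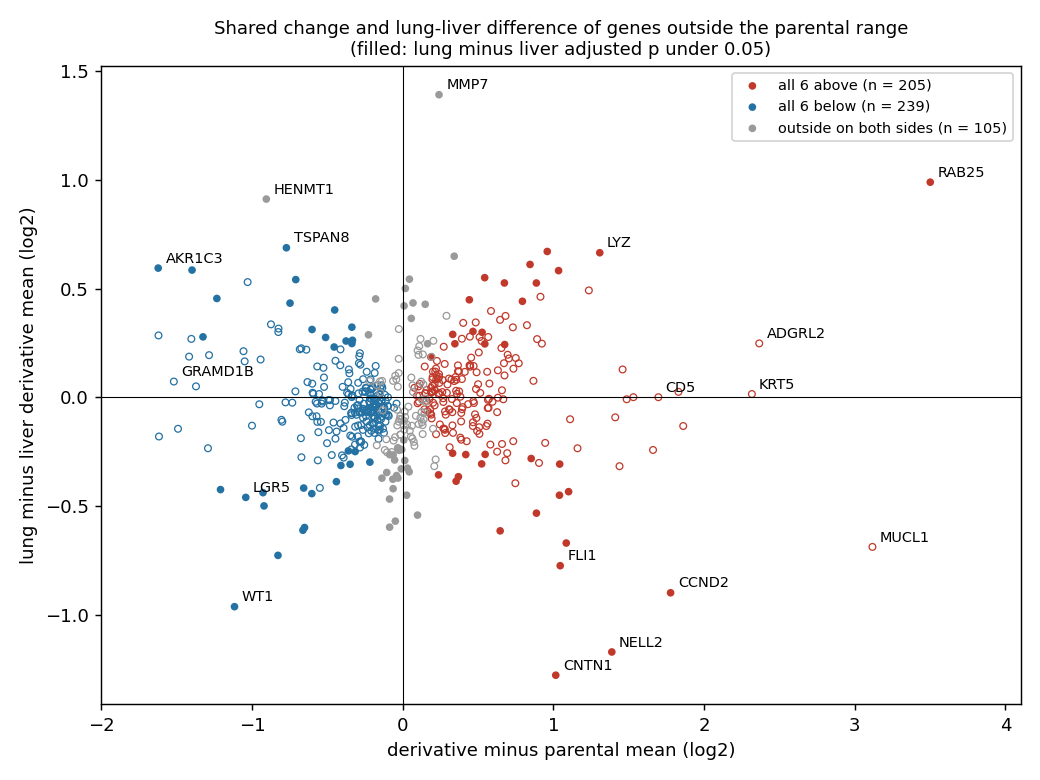
Difference between derivative and parental means (horizontal axis, log2) against the difference between lung and liver means (vertical axis, log2) for the 549 genes with all 6 derivative arrays outside the parental range. Filled points were called for lung against liver (adjusted p under 0.05); RAB25 and LYZ lie higher in lung, CNTN1, NELL2 and CCND2 lower, and KRT5 and CD5 near 0.

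Lung and liver derivatives were also set against each other. In a model with 1 coefficient per group, 937 of 4713 genes (19.9%) were called between lung and liver derivatives, 378 higher in lung (8.02%) and 559 lower (11.9%). Of the 444 separated genes 66 were called, 32 higher and 34 lower in lung, and of the 105 genes outside on both sides 36. Both sets were chosen on the same 6 derivative arrays, so these counts are a description and are not read against the share of all genes. The counts rest on single arrays: without liver array 2 the 937 became 31, without liver array 3 174, without lung array 1 188, without liver array 1 364 and without lung array 3 602, and without parental array 4 1523. The balance also depends on the scaling, since 40.3% of the calls were higher in lung as deposited and 55.6% after centring each array on its median. The lung and liver arrays lie in different array sets of the working division above, and for this contrast set and site cannot be told apart.

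Of the 66 genes 9 were called in all 10 fits that left out 1 array, namely CNTN1, RAB25, FLI1, DNM3, IGF2, NOTCH2, ITPR2, ROR1 and TSPAN8. CNTN1, an adhesion protein of neurons, lay at 5.37 to 5.52 in parental arrays, at 7.01 to 7.12 in liver and at 5.76 to 5.82 in lung arrays, 1.28 lower in lung than in liver (SE 0.07, limma adjusted p = 3.17e-06). Its difference in the pooled comparison, 1.02, had an adjusted p of 0.0654 because the pooled group counts that gap as spread. The lung arrays held RAB25 0.99 above the liver arrays (SE 0.08, limma adjusted p = 0.000175). FLI1, an ETS transcription factor, was 0.77 lower in lung, at 6.40 to 6.65 against 7.30 to 7.40 in liver and 5.74 to 6.09 in parental arrays. TSPAN8 was 0.69 higher in lung, at 6.76 to 7.05 against 6.03 to 6.35 in liver. NELL2 (-1.17) and WT1 (-0.96) differed as much but were not called in each of those fits.

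Genes outside the parental range on both sides were led by MMP7, a matrix protease of epithelial tumours. It lay at 6.71 to 6.84 in liver, 6.90 to 7.89 in parental and 8.06 to 8.38 in lung arrays, a difference of 1.39 between lung and liver. Parental array 4 held 7.89 and the other parental arrays 6.90 to 7.15. OLFML3, a secreted matrix protein, ran the other way, at 6.98 to 7.10 in liver, 6.74 to 6.90 in parental and 6.28 to 6.56 in lung arrays. HENMT1, a methyltransferase of small RNAs, had 1 lung array (7.75) above the parental range and the other 5 derivative arrays below it.

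**Figure D4:**
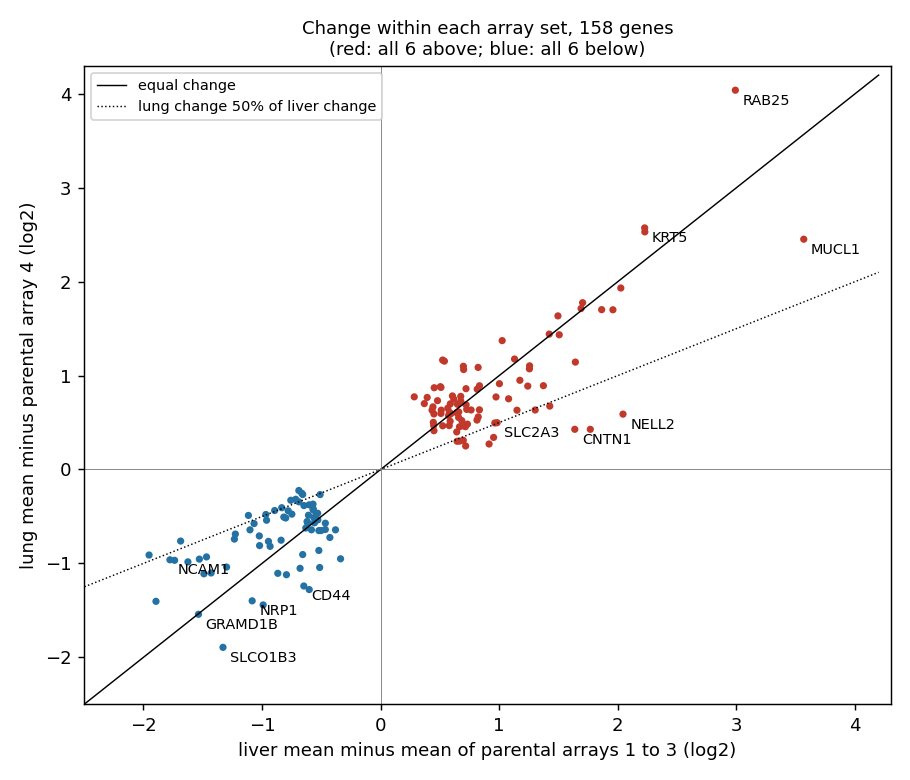
Mean of the liver arrays minus that of parental arrays 1 to 3 (horizontal axis, log2) against the mean of the lung arrays minus parental array 4 (vertical axis, log2) for the 158 separated genes with a difference of at least 0.5. The solid line marks equal changes and the dotted line a lung change of 50% of the liver change; NELL2 and CNTN1 lie below the dotted line and RAB25 above the solid one.

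Of 158 separated genes with a difference of at least 0.5, the change of the lung derivatives against parental array 4 was under 50% of that of the liver derivatives against parental arrays 1 to 3 in 23 genes. The reverse held in 6 genes. The first group included DKK1 (0.43 against 1.77), NELL2 (0.59 against 2.04) and CNTN1 (0.43 against 1.64), and the second IGF2 and LGR6. The lung values rest on a single parental array, and their signs follow from the separation itself. With the array set as a term in the model 618 genes were called, including all 361 called without it.

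A gene mean can hide rows that disagree. Among the 412 separated genes with at least 4 rows, 89 had at least 50% of their rows separated the same way, 46 above and 43 below. In 66 genes no single row was separated, as in KRT74, OVOL1 and C1R, and in 6 genes a row was separated the other way. The median share of rows separated with the gene was 22.2%. The gene means were taken over these same rows, so the share describes how they vary and adds no support. Of all rows with 1 symbol, whether or not their gene was separated, 2.33% had all 6 derivative arrays above and 2.93% below, and nothing is read from that distance. Most rows were separated in RAB25 (5 of 5), AKR1C3 (8 of 8), ADGRL2 (24 of 26), EFNA4 (6 of 6), GRIN2B (13 of 15) and LGR5 (14 of 18). Fewer were in DKK1 (2 of 7), SLCO1B3 (3 of 10), NELL2 (6 of 23), MARK1 (7 of 20) and A1CF (8 of 18).

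The separated genes were not spread evenly over the chromosomes. On chromosome 10, 109 of 691 genes (15.8%) were separated, 48 above and 61 below, against 8.67% on chromosome 1, 7.18% on chromosome 11 and 9.53% on chromosome 12. Without the dimmest genes, those in the lowest 25% by mean level, the share on chromosome 10 was 18.8%, against 11.1% of all such genes. Genes were then taken in blocks of 25 consecutive measured genes, which gave 185 blocks on the 4 chromosomes. This view was chosen after the values were seen.

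**Figure D5:**
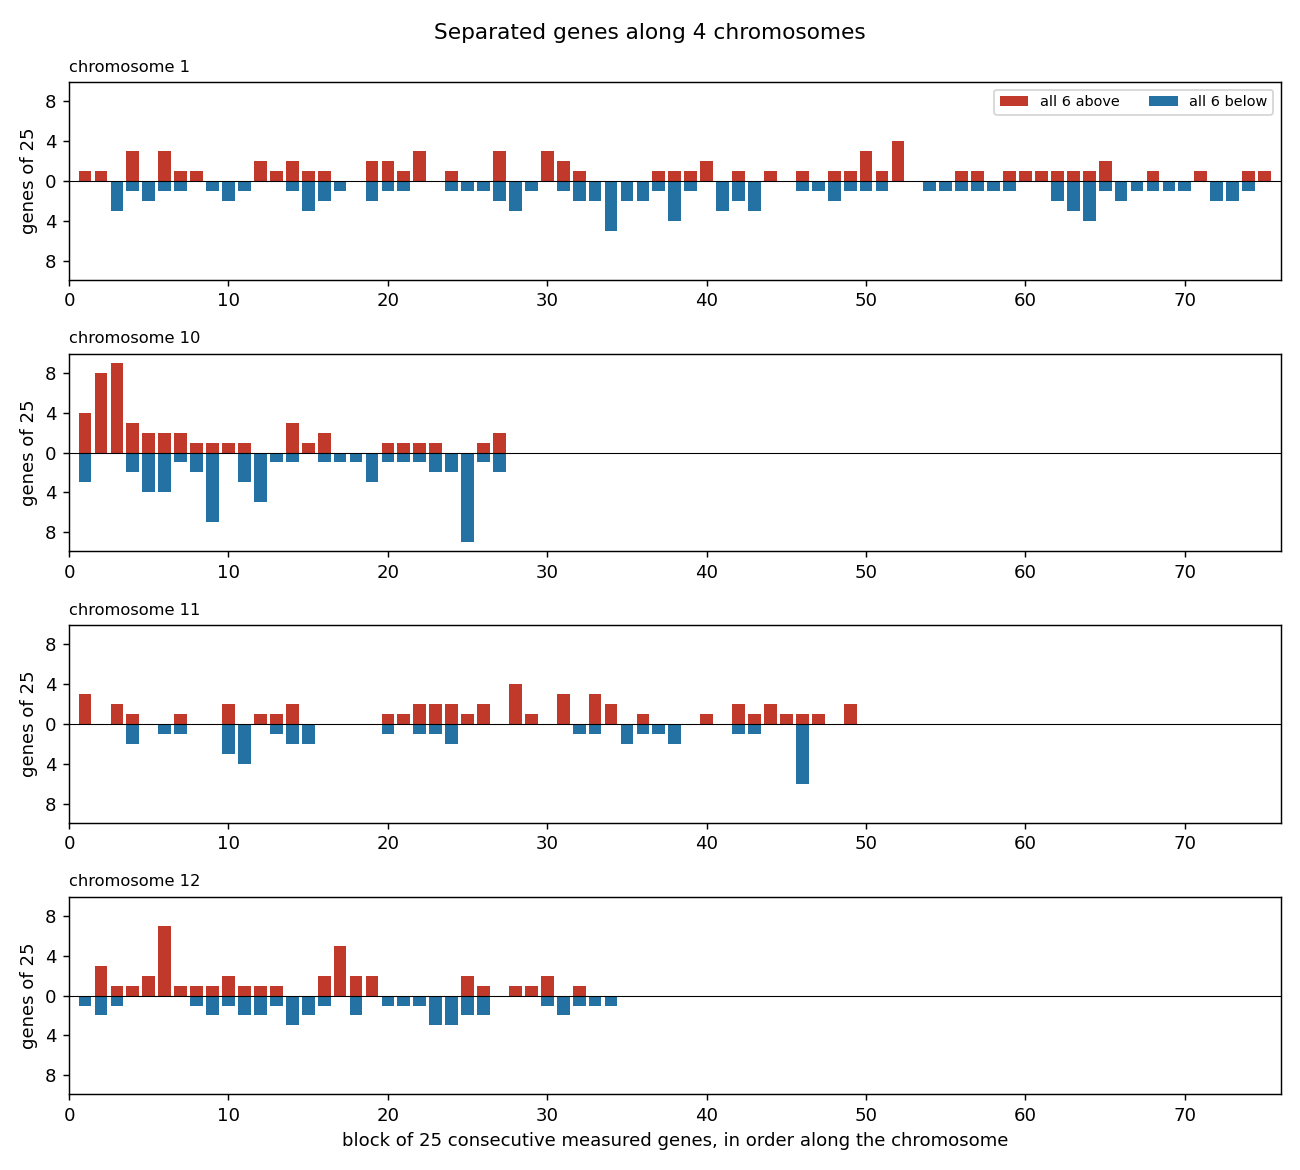
Number of genes with all 6 derivative arrays above (red, upward) or below (blue, downward) the parental range in each block of 25 consecutive measured genes, in order along chromosomes 1, 10, 11 and 12. Blocks 2 and 3 of chromosome 10 hold 8 and 9 genes above and none below, and its block 25 holds 9 below and none above.

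The start of the short arm of chromosome 10 held the densest run of genes above the parental range, called or not. Its first 4 blocks, from ZMYND11 to MSRB2, contained 24 genes above and 5 below among 100, and 84 of the 100 had a positive difference. Blocks 2 and 3 held 8 and 9 genes above and none below, where the other 181 blocks held at most 7 above. The mean of the 100 genes was 8.42, 8.40, 8.37 and 8.37 in parental arrays, 8.55, 8.56 and 8.55 in liver arrays and 8.50, 8.50 and 8.54 in lung arrays. All 6 derivative arrays lay above the 4 parental arrays. The region was picked for its many genes above in these same arrays, so this order adds no support. The median difference was 0.15, and 0.17 in liver and 0.16 in lung derivatives within the array sets. It was 0.18 after centring each array and 0.14 with the brightest row of each gene. Over the other 591 genes of the chromosome the median was -0.03 as deposited, 0.0012 after centring and 0.04 with the brightest row.

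Many of these genes have unrelated roles. OPTN, an autophagy receptor, rose by 0.89 (SE 0.17), from 7.79 to 8.21 in parental arrays to 8.68 to 9.63 in derivatives. MINDY3, a deubiquitinase, rose by 0.56, SEC61A2, a translocon subunit, by 0.51, and PRKCQ, a protein kinase C isoform, by 0.51. STAM, an endosomal sorting adaptor, rose by 0.45, IL15RA, the receptor chain that presents interleukin 15, by 0.45, and KIN, a DNA-binding protein, by 0.49. FAM171A1, with 1.53, was the outlier in size. Most rises in the region were small, and ASB13 (0.39, adjusted p = 0.0842) and SEPHS1 (0.16, adjusted p = 0.167) were separated without being called by limma. The 5 genes below in the same region were AKR1C3, AKR1C4, DIP2C (-0.53, SE 0.05), MLLT10 (-0.36) and PIP4K2A (-0.26). By limma the adjusted p reached 0.0975 for IL15RA (called in 4 of 10 fits with an array left out) and 0.05 for PRKCQ without parental array 1, and 0.0675 for MLLT10 and 0.0511 for PIP4K2A without parental array 2.

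Genes below the parental range, called or not, were dense at another place on the chromosome. Block 25, from EIF3A to FAM24B, held 9 genes below and none above, with a median of -0.11. It contains the neighbours TACC2, BTBD16, PLEKHA1 and HTRA1, of which HTRA1, a secreted serine protease, fell by 0.68 (SE 0.08). TACC2 (-0.19, adjusted p = 0.103), BTBD16 (-0.28, adjusted p = 0.0521) and PLEKHA1 (-0.34, adjusted p = 0.0715) were separated and not called by limma. Over the 4 chromosomes 84 separated genes stood in 38 runs of neighbours that lay on the same side, and 5 runs had 3 or more genes. Besides the KLR and TACC2 runs these were RPP38, NMT2 and FAM171A1, above, IGSF9, SLAMF9 and PIGM, above, and AP4B1, DCLRE1B and HIPK1, below. Copy number was not measured, and its part in these runs was not tested.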

How the data were processed

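The deposited values are log2 expression, which the authors made with RMA (background correction, quantile normalization, probe summary) and oligo, as listed without versions per the submitters' processing notes. RMA puts arrays on 1 distribution, so changes in total RNA cannot be seen. Of 65535 rows, a count that may mean a truncated table, 54806 list 1 gene symbol in the platform annotation, and updating symbols through RefSeq (GRCh38.p14) gave 4713 genes with a median of 10 rows. Rows with several symbols (2143) or none (8586) name no gene. For the array no genome build was given in the sources used here, and no coordinates were taken from it.

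Gene means were fitted with limma 3.58.1 (R 4.3.3), eBayes, two-sided, without a filter on dim genes. Adjusted p-values in the text come from limma. Arrays left out, scaling, row summary, dim genes, array set, replicate block and thresholds were varied. The code was tested on simulated data. Array number limits precision. Members, lists and tests were chosen with earlier results of these data known.

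Named genes were the 15 largest rises and falls among separated, called genes with at least 3 rows, up to 3 per direction with 1 or 2 rows, up to 2 separated members per list, the 3 largest lung-liver differences each way, up to 3 per direction just outside the range, up to 4 on both sides, PTHLH and the p38 kinases, RAB25, KRT5, LGR5 and CD44. The p38 kinases were planned but not measured. Other genes named were chosen after their values were seen.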

Additional observations from a re-analysis of the deposited data

Results flagged for a closer look

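Chance alone singles out about 1 group in 20 by the test of a stray array. Parental array 4 lay apart from the other parental arrays in 7 of the genes named above. Many genes were checked, so this count is not read as more than chance would give. It was low for FAM171A1 (8.07 against 8.20 to 8.22), CAMK2N1 (8.86 against 9.58 to 9.63), NCAM1 (7.65 against 8.61 to 8.72), SNORA19 (6.65 against 7.62 to 7.81) and FGF19 (9.07 against 9.19). It was high for SLC2A3 (9.70 against 8.94 to 9.01) and B3GALT2 (6.49 against 6.20 to 6.24). Parental array 3 was low for FADS2 (8.93 against 9.17 to 9.20).

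Among the 6 derivative arrays, lung array 3 was high for MARK1 (6.72 against 5.95 to 6.16), CH25H (9.09 against 7.80 to 8.23) and SLC2A3 (10.52 against 9.93 to 10.05). Lung array 1 was low for CGN (7.24 against 7.39 to 7.47) and ACACB (7.56 against 7.75 to 7.80), and lung array 2 for NCR3LG1 (8.86 against 9.17 to 9.35). Liver array 1 was high for APOA5 (7.98 against 7.71 to 7.76).

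Lung and liver derivatives differed by limma in 25 of the named genes, and in 19.9% of all genes. Some of the 25 were named for this very difference, so the count is not read against that share. Of the separated genes among them, CNTN1, RAB25, NOTCH2, ROR1 and TSPAN8 were called in all 10 fits that left out 1 array. The others were called in fewer, down to 2 for PHYHIPL. Among separated genes, lung was higher for RAB25 (0.99), TSPAN8 (0.69), EGR2 (0.67), LYZ (0.67), AKR1C3 (0.60), F5 (0.59), B3GALT2 (0.53), ABCC2 (0.46), TGFBR3 (0.31) and PHYHIPL (0.28). Lung was lower for CNTN1 (-1.28), NELL2 (-1.17), WT1 (-0.96), CCND2 (-0.90), NOTCH2 (-0.53), CD44 (-0.50), LGR5 (-0.46) and ROR1 (-0.42). Of genes just outside the separation, TLCD4 (0.52) and FCN3 (0.25) were higher and P3H1 (-0.31) lower in lung. Of genes on both sides, MMP7 (1.39), HENMT1 (0.91) and OR5AK2 (0.65) were higher and OLFML3 (-0.60) lower.

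Rows with no gene symbol also held separated signals: 110 of 8586 had all 6 derivative arrays above the parental range (1.28%, against 2.33% of rows with 1 symbol).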

How the results depend on the processing

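Leaving out 1 array gave 217 to 353 genes called between derivatives and parental cells (361 with all arrays), 479 to 795 separated genes (444) and 31 to 1523 genes called between lung and liver (937). The first count was 235 with the median of the rows, 121 with the brightest row, 651 with liver and lung averaged from 3 coefficients, 618 with the array set as a term, 754 with array weights and 196 at an adjusted p under 0.01. The separated genes numbered 269 with the brightest row, 134 of them among the 444, and 134 when the margin was at least 0.2. Centring arrays moved the share of separated genes above from 46.2% to 56.2%, and 391 of the 444 remained separated. The share of lung-liver calls higher in lung moved from 40.3% to 57.3% after quantile normalization and to 26.9% without the dimmest 25% of genes. Deviations of same-numbered arrays from their group means had correlations of -0.20 to 0.13. With 3 or 4 arrays per group such values cannot decide whether the numbers pair the samples. With the replicate block 245 genes were called between derivatives and parental cells and 1290 between lung and liver. Differences changed sign with the median of the rows for MMP12 (-0.25) and APOA5 (-0.053). With the brightest row they did so for ROR1 (0.41), CGN (0.27), KRT6A (-0.093), ZEB1 (0.0136), ADAMTS14 (0.10), SHMT2 (0.0126), ACACB (0.22), CYP2E1 (0.0068), HENMT1 (0.0832) and OLFML3 (0.33). OLFML3 did so also without lung array 2 (0.0022, with a range of -0.161 to 0.0022 over single arrays left out), with the array set (0.021) and with array weights (0.10), and MMP7 with the array set (-0.064) and with array weights (-0.11). The cause of these changes was not tested. In dim genes the signal over background limits what can be seen.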

Other observations

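Some changes of at least 1 log2 unit fell outside the gene lists and were chosen after their values were seen. DHRS3, which reduces retinaldehyde, rose by 1.24 and CRABP2, the carrier of retinoic acid to its receptor, by 1.09. The actin-binding NEXN rose by 1.10 together with the antisense transcript NEXN-AS1 beside it, which these values do not tell apart; the adjusted p of NEXN-AS1 by limma was 0.0824 without parental array 1. LPXN, a focal adhesion protein related to paxillin, rose by 1.11. NRP1, a co-receptor of VEGF and semaphorins, fell by 1.03 (SE 0.19), with 9.62 in parental array 4, 8.68 to 8.89 in the other parental arrays, 7.66 to 7.73 in liver and 8.10 to 8.31 in lung arrays. DENND5B, an exchange factor of RAB GTPases, fell by 1.001.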
